A study of Mus musculus with 6 samples.

Results

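Messenger RNA levels of 9 genes of the ubiquitin system were compared between hearts of Elac2 knockout mice and hearts of control mice. Of these genes, 4 encode the ubiquitin carboxy-terminal hydrolase (UCH) family of deubiquitinases (Uchl1, Uchl3, Uchl5 and Bap1) and 5 encode ubiquitin ligases known from muscle atrophy (Fbxo32, Trim63, Trim54, Trim55 and Fbxo30). They are 9 of 51888 rows of the count tables and were chosen with their difference in this contrast already known, so that their fold changes, and the calls counted for them, describe values the choice had used and support nothing. The knockout group was 3 mice titled L/L with cre and given the genotype Elac2 -/-, in which cre driven by the muscle creatine kinase promoter removed 1 loxP-flanked exon. The control group was 3 mice titled L/L without cre and given the genotype Elac2 +/+. All 6 mice were on a C57BL/6 background, and RNA was taken from whole hearts. Age and sex are not spelled out in the labels. The promoter is known to be active in striated muscle cells, and whether the exon was removed in each cell type of these hearts was not measured here.

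Ubiquitin is joined to proteins by a chain of E1 activating, E2 conjugating and E3 ligase enzymes, and chains of ubiquitin send a protein to the proteasome. Deubiquitinases remove ubiquitin again, and the UCH family are cysteine proteases that cleave it at its carboxy terminus. In skeletal and heart muscle, Fbxo32 (atrogin-1) and Trim63 (MuRF1) are ligases whose messenger RNA rises in many forms of atrophy under FoxO transcription factors. Uchl1 is best known as an abundant protein of neurons and neuroendocrine cells.

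The libraries held between 9850100 and 14461110 counts. Features of the mitochondrial genome took 33.3 to 36.7% of the counts in knockout libraries and 49.3 to 61.1% in control libraries, and levels are therefore given as CPM, counts relative to a library size scaled by the trimmed mean of M values (TMM). Elac2 itself had 101, 97 and 81 counts in knockout hearts, against 200, 126 and 112 counts in control hearts, a log2 fold change of -1.27 ± 0.15 (SE; edgeR quasi-likelihood test, Benjamini-Hochberg adjusted p = 2.12e-04). In whole-heart RNA, fewer cells of a type and less RNA per cell cannot be told apart. Replicate 2 of each group had the lowest summed level of 5 atrial markers, a list added after the data were seen. The sums were 453, 290 and 481 CPM in the knockout hearts and 714, 168 and 713 CPM in the control hearts.

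All 9 genes passed the filter on low counts. At an adjusted p under 0.05 over 14302 tested genes, 5 of the 9 were called, 3 higher and 2 lower in knockout hearts. Over all tested genes 36.5% were called, 18.7% higher and 17.8% lower, and since the genes were chosen on this contrast nothing is read from the comparison of these shares. The CPM values of the groups did not overlap for 5 of the 9 genes, beside 50.6% of all tested genes.

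Promoters of 3 of the genes are printed here. Uchl1 differed most, and Trim63 and Trim54, which encode closely related ligases, differed in opposite directions under TMM scaling. The lower call of Trim63 was held in 8 of 17 alternative settings. Each is the 250 bases before the RefSeq start on the GRCm38.p6 build, forward strand, and capitals mark the 1 match to a searched motif. The end of the Uchl1 window lies within the first exon of the GENCODE gene model.
Uchl1, chr5:66675871-66676120: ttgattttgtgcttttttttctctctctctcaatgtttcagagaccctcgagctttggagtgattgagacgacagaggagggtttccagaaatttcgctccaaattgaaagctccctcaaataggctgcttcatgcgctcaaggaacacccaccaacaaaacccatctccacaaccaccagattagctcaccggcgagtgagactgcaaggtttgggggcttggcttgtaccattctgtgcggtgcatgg
Trim63, chr4:134314870-134315119: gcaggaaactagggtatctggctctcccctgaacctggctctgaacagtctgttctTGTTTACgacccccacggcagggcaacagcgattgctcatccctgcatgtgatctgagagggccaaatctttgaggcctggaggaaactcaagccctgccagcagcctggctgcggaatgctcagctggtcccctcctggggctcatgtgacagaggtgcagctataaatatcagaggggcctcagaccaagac
Trim54, chr5:31116362-31116611: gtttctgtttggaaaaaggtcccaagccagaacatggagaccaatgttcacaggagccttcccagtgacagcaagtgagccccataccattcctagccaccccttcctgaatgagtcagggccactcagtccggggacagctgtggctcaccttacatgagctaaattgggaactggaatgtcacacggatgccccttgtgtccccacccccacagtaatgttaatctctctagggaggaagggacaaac
The searched motifs were GTAAACA, a binding motif of FoxO factors; TGATGNAAT, a response element of the amino acid stress factor ATF4; and the palindromic glucocorticoid response element, each on both strands with exact letters. RefSeq windows were found for 7 of the 9 genes, and Fbxo32 and Trim55 had no entry. The match in Trim63 is GTAAACA on the reverse strand, 194 bases before the start. Among 32851 promoters of the same length, 3.17% held GTAAACA, 0.816% held TGATGNAAT and 0.00913% held the glucocorticoid element. The search with exact letters leaves near matches unmarked. Directly before the capitals, the Trim63 window holds letters that differ from the searched glucocorticoid element only in its opening letter. Near matches were not counted in the other promoters, so how common they are was not tested. A match or near match describes letters and is not a measured binding site.

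**Figure D1:**
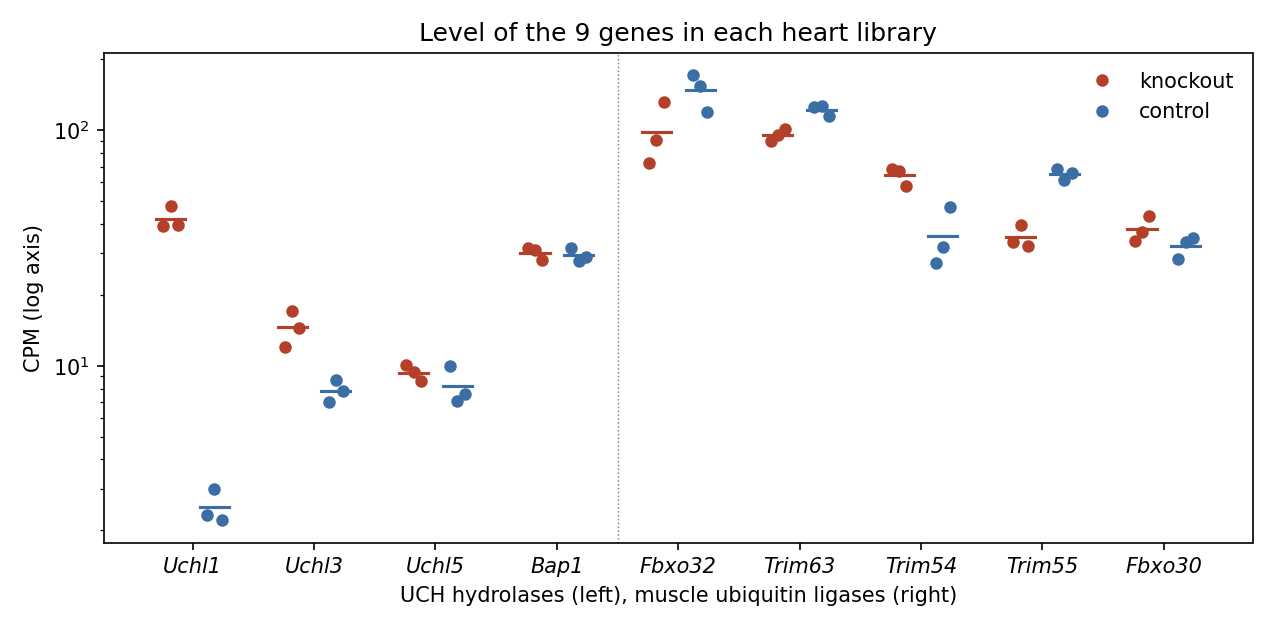
CPM of each of the 9 genes (log axis) in the 3 knockout libraries (red, left) and the 3 control libraries (blue, right). Points are libraries and lines are group means. Uchl1 sits between 39.1 and 47.6 CPM in knockout hearts and between 2.21 and 3.0 CPM in control hearts, while Bap1 overlaps between the groups.

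Uchl1 (chr5:66676091-66687234, forward strand, mm10), the UCH enzyme of neurons, had the largest difference of the 9. It had 737, 819 and 490 counts in knockout hearts and 31, 27 and 19 counts in control hearts. The levels were 39.1, 47.6 and 39.5 CPM in knockout hearts and 2.33, 3.0 and 2.21 CPM in control hearts. Every knockout heart was far above every control heart, and the hearts within a group lay close together. The means were 42.0 ± 4.78 CPM in knockout hearts and 2.51 ± 0.427 CPM in control hearts (SD, n = 3 each). The difference was 16.8-fold, or 4.07 ± 0.17 (SE) on the log2 scale. Of all tested genes, 44 had a larger log2 fold change, and 7 of the 41 protein-coding ones among them also had a higher mean level in knockout hearts than Uchl1. The antisense gene Uchl1os overlaps 295 bases of Uchl1 exons and had at most 2 counts in any library. No source used here gives the strand setting of the counting, so reads of antisense pairs cannot be told apart.

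Uchl3 (chr14:101653967-101696125, forward strand), which cleaves ubiquitin and the related modifier NEDD8, was also higher in knockout hearts. The levels were 12.05, 17.1 and 14.5 CPM in knockout hearts and 6.997, 8.67 and 7.78 CPM in control hearts. The groups did not overlap, and the log2 fold change was 0.90 ± 0.17, or 1.87-fold. Transcripts of Uchl3 and its near copy Uchl4 are 96.6% identical over 851 bases, so the counting could have split reads between them. Uchl4 had 20, 28 and 21 counts in knockout hearts and 11, 13 and 4 counts in control hearts, few beside the 227, 295 and 180 counts of Uchl3 in knockout hearts.

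The other two hydrolases, which act on chromatin or at the proteasome, had overlapping groups. Uchl5 (chr1:143777272-143807466), a deubiquitinase bound to the proteasome, had levels of 10.03, 9.41 and 8.61 CPM in knockout hearts and 9.93, 7.11 and 7.55 CPM in control hearts. Its log2 fold change was 0.18 ± 0.17 and it was not called. Bap1 (chr14:31251450-31259944), a nuclear tumour suppressor that removes ubiquitin from histone H2A, had levels of 31.5, 30.8 and 28.1 CPM in knockout hearts and 31.5, 27.9 and 29.0 CPM in control hearts. The fold change of Bap1 was 0.03 ± 0.11 on the log2 scale, less than its standard error.

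Per kilobase of merged exons, the makeup of the hydrolase family was different. Uchl1 made up 65.6 ± 1.42% of the summed level of the 4 genes in knockout hearts and 12.2 ± 2.22% in control hearts. Bap1 made up 16.5 ± 1.46% in knockout hearts and 49.6 ± 1.73% in control hearts. The family sum was 39.2 ± 3.66 CPM per kilobase in knockout hearts and 12.7 ± 0.631 CPM per kilobase in control hearts. Uchl1 had the highest mean of the 4 in knockout hearts. It had the lowest in control hearts, where its values overlapped those of Uchl3.

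**Figure D2:**
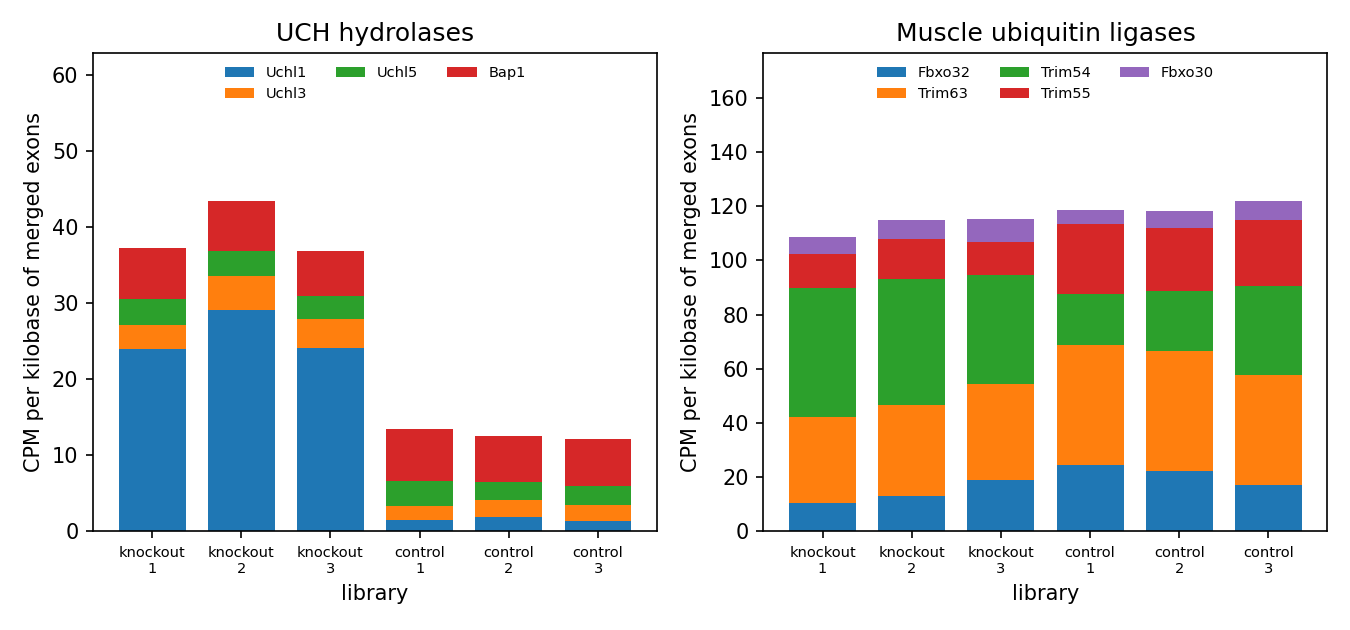
Stacked levels (CPM per kilobase of merged exons) of the 4 UCH hydrolases and the 5 muscle ubiquitin ligases in each library, knockout libraries left and control libraries right. Uchl1 fills 64.3 to 67.1% of the hydrolase bar in knockout hearts and 10.7 to 14.7% in control hearts, and the ligase bars are of like height, at 109 to 115 and 118 to 122 CPM per kilobase.

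Among the ligases, the 3 muscle RING finger proteins did not move together. Trim54 (MuRF3; chr5:31116712-31137630, forward strand), a microtubule-binding ligase of the sarcomere, had levels of 68.3, 67.1 and 57.7 CPM in knockout hearts and 27.4, 31.9 and 47.0 CPM in control hearts. Every knockout heart was above every control heart, and control replicate 3 was nearest to them. The log2 fold change was 0.87 ± 0.18, or 1.82-fold. Without both replicates 2 it was 0.77 and was not called. The antisense gene Gm15469, which overlaps 382 exonic bases of Trim54, had at most 1 count in any library.

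Trim55 (MuRF2; chr3:19644474-19692421, forward strand), a ligase that binds titin and the sarcomere, was lower in knockout hearts. The levels were 33.6, 39.4 and 32.4 CPM in knockout hearts and 68.1, 61.5 and 65.7 CPM in control hearts. All 3 knockout hearts were well under the lowest control heart, and the log2 fold change was -0.89 ± 0.12. With library size alone as the scale it was -0.20 and was not called.

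Trim63 (MuRF1; chr4:134315120-134329629, forward strand), the ligase of myosin heavy chain and other thick filament proteins, was also lower under TMM scaling, by less. The levels were 90.1, 95.2 and 101.0 CPM in knockout hearts and 125.3, 126.3 and 115.1 CPM in control hearts. The groups did not overlap, and the log2 fold change was -0.36 ± 0.11. This call was held in 8 of 17 alternative settings. Among those that lost it were the authors' deposited table, DESeq2, no filter on low counts, and the fits without knockout replicate 2, without control replicate 1, without control replicate 2 and without both replicates 2. With library size alone the fold change turned to 0.33.

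Fbxo32 (atrogin-1; chr15:58175879-58214932, reverse strand), the F-box ligase that marks calcineurin and other heart proteins for degradation, had levels of 72.4, 90.4 and 131.6 CPM in knockout hearts and 170.9, 153.9 and 119.3 CPM in control hearts. Knockout replicate 3 lay above control replicate 3, so the groups overlapped. The log2 fold change was -0.60 ± 0.22 and was not called. It was called lower in 7 of 17 alternative settings. With all 6 libraries these were DESeq2, the authors' deposited table, limma-voom, no filter and the strict filter, and with 1 library fewer they were the fits without knockout replicate 3 (-0.86) and without control replicate 3 (-0.73). The log2 fold change was 0.08 with library size alone. The antisense gene Gm15943 overlaps 186 exonic bases and had at most 8 counts in any library.

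Fbxo30 (MUSA1; chr10:11281330-11298052, forward strand), an F-box ligase induced in skeletal muscle when bone morphogenetic protein signalling is blocked, had levels of 33.8, 36.9 and 43.3 CPM in knockout hearts and 28.4, 33.6 and 34.7 CPM in control hearts. The groups overlapped, and the log2 fold change was 0.24 ± 0.13.

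Per kilobase, the ligase sum was 113 ± 3.64 CPM per kilobase in knockout hearts and 120 ± 1.90 CPM per kilobase in control hearts. Trim54 made up 39.7 ± 4.46% in knockout hearts and 20.6 ± 5.64% in control hearts, and Trim55 11.7 ± 1.15% and 20.5 ± 1.03% in the same order. Over all 9 genes the order of levels in knockout hearts was Trim54 at 44.8, Trim63 at 33.6, Uchl1 at 25.8, Fbxo32 at 14.1, Trim55 at 13.2, Fbxo30 at 7.31, Bap1 at 6.44, Uchl3 at 3.80 and Uchl5 at 3.20 CPM per kilobase. The neighbours Fbxo32 and Trim55, Fbxo30 and Bap1, and Uchl3 and Uchl5 overlapped among the knockout hearts. In control hearts the order was Trim63 at 43.0, Trim54 at 24.7, Trim55 at 24.5, Fbxo32 at 21.2, Bap1 at 6.30, Fbxo30 at 6.20, Uchl5 at 2.81, Uchl3 at 2.04 and Uchl1 at 1.54 CPM per kilobase. There Trim54 overlapped Trim55, Trim55 overlapped Fbxo32, Bap1 overlapped Fbxo30, and Uchl3 overlapped Uchl1. Uchl1 thus stood last in control hearts and at the third place in knockout hearts.

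**Figure D3:**
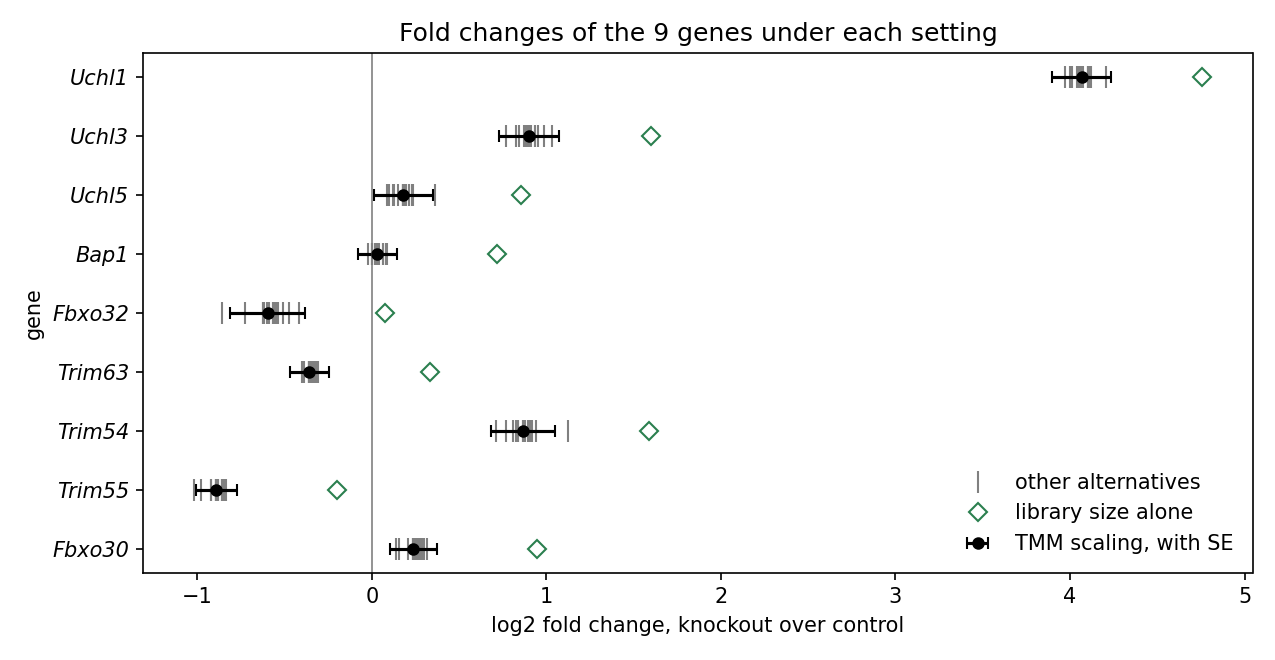
Log2 fold change, knockout over control, of each gene with TMM scaling (black, SE bars), with library size alone (green diamonds) and in the other alternative settings (grey ticks). Library size alone lies to the right for all 9 genes, where the median over all tested genes is 0.68 against -0.01 with TMM scaling; Uchl1 stays between 3.97 and 4.76.

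The genes whose profile over the 6 libraries was nearest to that of Uchl1 were sought by the root mean square difference of centred log2 CPM. They were Mybl1 at 0.22, Cyb5r2 at 0.22, Gm6806 at 0.25, Gm19410 at 0.28 and 4833412C05Rik at 0.29. Mybl1, a transcription factor of the Myb family, had 22.3 ± 6.91 CPM in knockout hearts and 1.43 ± 0.427 CPM in control hearts. Gm19410 had 16.9 ± 3.07 CPM in knockout hearts and 1.12 ± 0.285 CPM in control hearts. Cyb5r2 and 4833412C05Rik had 1.92 and 1.996 CPM in knockout hearts and no read in control hearts, and Gm6806 had 2.19 CPM in knockout hearts and 0.0370 CPM in control hearts. The log2 scale adds a prior count of 2, so the likeness of these 3 low genes to Uchl1 depends on that count. For Fbxo32 the nearest were Aox1 at 0.03, with 12.9 ± 3.85 CPM in knockout hearts and 18.9 ± 2.92 CPM in control hearts, then Epm2a at 0.07 and Clmn at 0.08. These are likenesses of level over 6 libraries, and the 2 groups account for much of each profile.

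The wider pathway was counted in lists chosen with earlier results of these data known. Of all tested genes, 2671 (18.7%) were called higher and 2544 (17.8%) lower, with a median log2 fold change of -0.01. Each list count below stands beside these shares. With library size alone the numbers of tested genes called were 8093 and 552, and without both replicates 2, which leaves 2 libraries a group, they were 1042 and 1014. The list counts without both replicates 2, higher then lower, were 0 and 0 for UCH partners, 5 and 2 for other deubiquitinases, 3 and 8 for other ligases, 2 and 1 for the ubiquitin core, 3 and 6 for upstream regulators, 8 and 4 for FoxO and atrophy-induced genes and 3 and 3 for substrates.

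Of 17 tested partners of the UCH enzymes, 3 were higher and 2 lower (median 0.00), against 18.7% and 17.8% over all tested genes. Adrm1, the proteasome receptor that recruits Uchl5, was higher at 24.2 ± 2.75 CPM in knockout hearts and 15.4 ± 3.46 CPM in control hearts (log2 fold change 0.64 ± 0.17, adjusted p = 0.0162). Asxl2, an activating partner of Bap1, was lower at 29.9 ± 1.60 CPM in knockout hearts and 40.6 ± 3.28 CPM in control hearts (log2 fold change -0.44 ± 0.11, adjusted p = 0.0126). Neither call held without knockout replicate 2, when no partner was called in either direction, and that of Asxl2 was lost without control replicate 2 too. The number called higher was 1 without control replicate 1 or 3, and the number called lower was 4 without knockout replicate 1, 1 without knockout replicate 3 or control replicate 3, and 0 without control replicate 2. Scaled by library size alone, 13 were higher and none lower.

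Of 64 other deubiquitinases tested, 18 were higher and 4 lower (median 0.07). Otub2, an ovarian tumour domain deubiquitinase, was higher at 21.2 ± 4.05 CPM in knockout hearts and 3.15 ± 0.737 CPM in control hearts (log2 fold change 2.76 ± 0.21, adjusted p = 2.07e-05). Otulin, which removes linear ubiquitin chains, was higher by 1.70 ± 0.17, and Psmd14, the deubiquitinase of the proteasome lid, by 0.91 ± 0.11 on the log2 scale. Usp2 was lower at 28.9 ± 1.2 CPM in knockout hearts and 56.2 ± 8.84 CPM in control hearts. The number higher was 11 without knockout replicate 2, control replicate 1 or control replicate 3, and 10 without control replicate 2. On library size alone, 55 were higher and none lower, Usp2 among those that lost the call.

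Of 46 other muscle ubiquitin ligases tested, 8 were higher and 15 lower (median -0.08). Fbxo40, an F-box ligase that targets IRS1 in skeletal muscle, was higher at 373 ± 36.1 CPM in knockout hearts and 176 ± 5.81 CPM in control hearts (log2 fold change 1.09 ± 0.13, adjusted p = 2.01e-04). Asb15, a muscle ankyrin and SOCS box protein, was lower at 4.52 ± 1.62 CPM in knockout hearts and 29.8 ± 2.94 CPM in control hearts (log2 fold change -2.74 ± 0.23, adjusted p = 3.54e-05). Its relative Asb2 was lower, at a log2 fold change of -1.20 ± 0.15, as was Rnf207, a cardiac ligase linked to repolarisation, at -1.84 ± 0.23. These counts were 25 and 4 with library size alone.

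Of 38 genes of ubiquitin, the E1 and E2 enzymes and the SCF ligase core tested, 12 were higher and 4 lower (median 0.23). Rps27a, which encodes a fusion of ubiquitin with a ribosomal protein, was higher by 0.80 ± 0.14 on the log2 scale. Ube2b, the E2 enzyme HR6B, which is induced in wasting skeletal muscle, was lower at 47.8 ± 3.71 CPM in knockout hearts and 88.7 ± 6.88 CPM in control hearts (log2 fold change -0.89 ± 0.12, adjusted p = 3.88e-04). The number higher was 7 without knockout replicate 2 or control replicate 2. The number lower was 1 without knockout replicate 2, control replicate 2 or control replicate 3, and 2 without knockout replicate 3. On library size alone, 31 were higher and none lower, and Ube2b lost its call.

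Of 39 upstream regulators of the atrophy ligases tested, 5 were higher and 17 lower (median -0.38). Tnfrsf12a, the receptor Fn14 of the cytokine TWEAK, was higher at 100 ± 30.9 CPM in knockout hearts and 21.4 ± 2.04 CPM in control hearts (log2 fold change 2.23 ± 0.21, adjusted p = 6.36e-05). Inhba, the activin A subunit, was higher by 3.21 ± 0.49 on the log2 scale, with a wide spread among knockout hearts. Its levels were 23.6 ± 16.5 CPM in knockout hearts and 2.59 ± 0.876 CPM in control hearts. In the same list Fstl3 was higher, at 1.84 ± 0.34, and Smad3 lower, at -1.13 ± 0.16, a call lost with library size alone. Klf15, a glucocorticoid-induced factor that acts on Fbxo32 and Trim63 in skeletal muscle, was lower at 13.4 ± 2.04 CPM in knockout hearts and 36.8 ± 6.05 CPM in control hearts (log2 fold change -1.47 ± 0.16, adjusted p = 1.44e-04). The FoxO factor with the largest change was Foxo6, lower at 0.261 ± 0.155 CPM in knockout hearts and 1.73 ± 0.310 CPM in control hearts (log2 fold change -2.66 ± 0.43, adjusted p = 0.00123). Foxo6 had few reads, with 13 counts summed over the knockout hearts and 54 over the control hearts. The strict filter removed it before testing, and its call held in the other 16 of the 17 alternatives. Of the other FoxO factors, which were looked at after their values were seen, Foxo3, Foxo4 and Foxo1 were lower, at log2 fold changes of -0.70 ± 0.13, -0.66 ± 0.15 and -0.65 ± 0.18. With library size alone 16 regulators were higher and 3 lower, and Foxo1, Foxo3 and Foxo4 lost their calls, at 0.06, 0.00 and 0.05. The calls of Foxo1, Foxo3 and Foxo4 were also lost without both replicates 2, and that of Foxo1 without knockout replicate 2 or control replicate 3. Also lower were Hdac4 at -0.93 ± 0.13, Pik3r1 at -0.96 ± 0.17, Akt1 at -0.55 ± 0.13 and Ppargc1a at -1.96 ± 0.38. Among these only the call of Ppargc1a held with library size alone. Without both replicates 2 only those of Hdac4 and Pik3r1 held. The list was not sorted by whether a gene raises or restrains the ligases, so its counts give no direction of input to them.

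Of 31 FoxO targets and other atrophy-induced genes tested, 12 were higher and 8 lower (median 0.09). Sqstm1, the autophagy receptor p62, was higher at 520 ± 21.0 CPM in knockout hearts and 121 ± 17.1 CPM in control hearts (log2 fold change 2.10 ± 0.15, adjusted p = 1.25e-05). Eif4ebp1, a translation inhibitor, was higher by 1.65 ± 0.14 and Ctsl, a lysosomal protease, by 1.51 ± 0.17 on the log2 scale. Pdk4, the kinase that holds pyruvate dehydrogenase inactive, was lower at 271 ± 45.4 CPM in knockout hearts and 719 ± 164 CPM in control hearts (log2 fold change -1.41 ± 0.20, adjusted p = 5.36e-04). These counts were 20 and 1 with library size alone.

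The last list holds genes of proteins that MuRF ligases or atrogin-1 bind or mark, and of titin kinase partners. Of the 22 tested, messenger RNA was higher for 5 and lower for 6 (median -0.06), and protein was not measured. Sqstm1 and Tcap are also in the list of FoxO targets and other atrophy-induced genes. Myh7, the slow myosin heavy chain, was higher at 1162 ± 609 CPM in knockout hearts and 108.5 ± 49.1 CPM in control hearts (log2 fold change 3.42 ± 0.48, adjusted p = 5.92e-04). Myot, which encodes the Z-disc protein myotilin, was lower at 1.10 ± 0.0803 CPM in knockout hearts and 10.02 ± 1.53 CPM in control hearts (log2 fold change -3.19 ± 0.21, adjusted p = 1.06e-05). The muscle creatine kinase gene Ckm was lower, at a log2 fold change of -1.80 ± 0.16. The number higher was 3 without knockout replicate 3 or control replicate 2. On library size alone, 11 were higher and 3 lower.

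**Figure D4:**
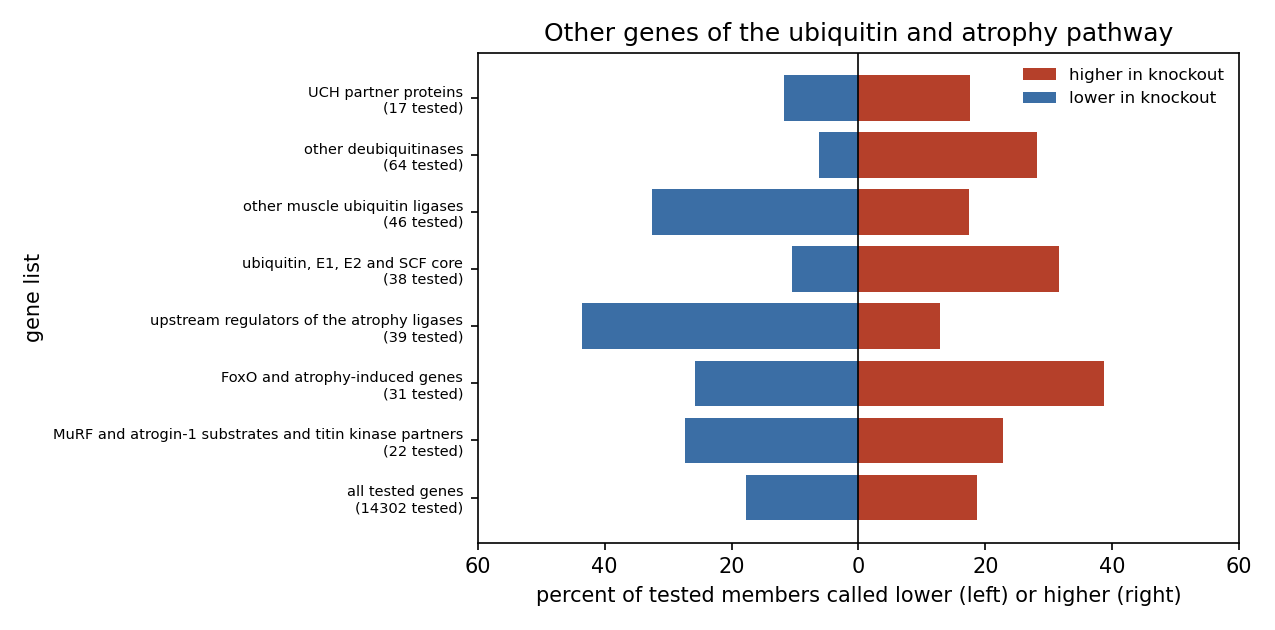
Percent of the tested members of each of the 7 pathway lists called higher (red, right) or lower (blue, left) in knockout hearts under TMM scaling, with all 14302 tested genes in the lowest bar. Among these 7 lists the upstream regulators extend furthest to the left, with 17 of 39 lower, and the FoxO and atrophy-induced genes furthest to the right, with 12 of 31 higher.

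Markers of other cell types were read in the same libraries. The 24 listed markers of neurons and neuroendocrine cells summed to 11.5, 8.07 and 9.10 CPM in knockout hearts and 19.5, 18.1 and 17.9 CPM in control hearts. Ret had the largest difference of the 24, and without it the group means were 8.15 CPM in knockout hearts and 6.98 CPM in control hearts. That order depends in turn on Tubb3, so the direction of these sums turns on single genes. Mean levels were higher in knockout hearts for 11 of the 24 and lower for 12. Of the 5 that were tested, Tubb3 was higher, at 4.24 ± 1.996 CPM in knockout hearts and 0.615 ± 0.157 CPM in control hearts. Ret and Dbh were lower, Dbh at 0.228 ± 0.155 CPM in knockout hearts and 2.38 ± 0.481 CPM in control hearts, and the rest were not called. The part of neuronal RNA in the level of Uchl1 was not tested. Chat had 0 counts in all 6 libraries and Th 0 counts in knockout hearts and 1 count in control hearts. Markers of Schwann cells and glia summed to 67.1 ± 6.38 CPM in knockout hearts and 66.0 ± 3.11 CPM in control hearts. Skeletal muscle markers summed to 10.6 ± 1.62 CPM in knockout hearts and 17.5 ± 4.11 CPM in control hearts, and without Mybpc2, which was lower, the means were 5.76 and 5.58 CPM in the same order. Myh8 of this list was higher, at 1.02 ± 0.259 CPM in knockout hearts and 0.126 ± 0.0214 CPM in control hearts, and Myod1, Myf5, Pax7 and Myog were at 0 in all 6 libraries.

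The 12 cardiomyocyte markers, by which the labelled tissue was checked, summed to 24903, 29072 and 27612 CPM in knockout hearts and 44300, 42912 and 44606 CPM in control hearts. Without Myh6, the marker of largest difference, the means were 19483 CPM in knockout hearts and 24668 CPM in control hearts. Of the 12, Nppa was higher, Ryr2, Myh6, Pln and Actc1 were lower, and 7 were not called. The calls of Pln and Actc1 were lost with library size alone, and those of Myh6, Pln and Actc1 without both replicates 2. Of the muscle ligases, Trim55 was lower in the same hearts, as was Trim63 under TMM scaling, while Trim54 and Fbxo40 were higher. Endothelial markers summed to 612 ± 73.8 CPM in knockout hearts and 837 ± 49.6 CPM in control hearts, with 5 of 10 lower. None of these 5 calls held with library size alone, and only that of Kdr held without both replicates 2. Smooth muscle and pericyte markers summed to 776 ± 31.2 CPM in knockout hearts and 1282 ± 148 CPM in control hearts, with 2 of 10 higher and 3 lower. Without Acta2, which was lower, their means were 680 CPM in knockout hearts and 983 CPM in control hearts. The lower calls of Rgs5 and Abcc9 in this list were lost with library size alone. Over all tested genes 18.7% were called higher and 17.8% lower. Macrophage markers summed to 216.4 ± 18.2 CPM in knockout hearts and 188 ± 10.3 CPM in control hearts, with Lyz2 higher. Fibroblast markers summed to 2828 ± 529 CPM in knockout hearts and 2183 ± 428 CPM in control hearts, with overlapping groups and Postn higher. The part of these differences in the levels of the 9 genes was not tested. For sums whose groups do not overlap, the two-sided exact permutation test gave p = 0.1, the smallest value that 3 hearts against 3 allow.

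**Figure D5:**
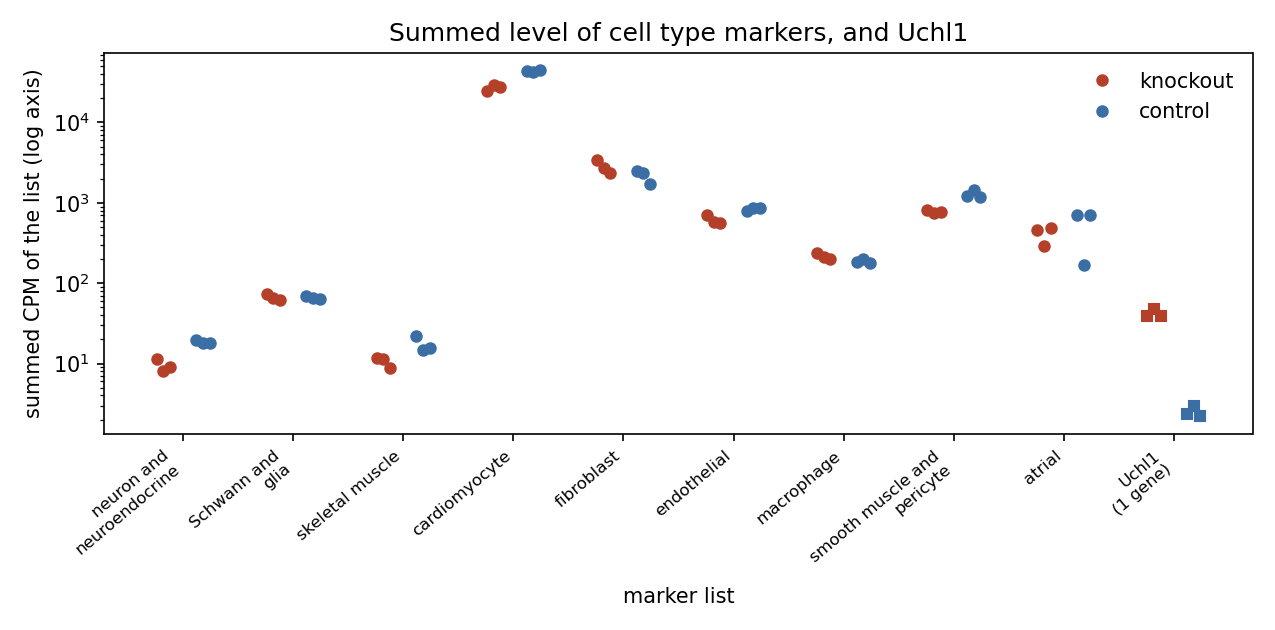
Summed CPM of each marker list (log axis) in the knockout libraries (red, left) and the control libraries (blue, right), with the single gene Uchl1 as squares at the right. The neuron and neuroendocrine sum, of which Ret is the largest part in control hearts, is 9.56 ± 1.77 CPM in knockout hearts and 18.5 ± 0.865 CPM in control hearts, and Uchl1 is 42.0 ± 4.78 and 2.51 ± 0.427 CPM in the same order.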

How the data were processed

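Reads from total RNA of 6 hearts, each a separate mouse in the labels, were handled, per the submitters' processing notes, with featureCounts 1.5.1, DESeq2 1.16.1, HISAT2 2.0.5 and SAMtools 1.5, on mm10. The authors deposited whole-number counts per gene, not normalised. A deposited table of the authors' own comparison holds, per gene, the log2 fold change and the adjusted p-value that were used here. The edgeR package (4.0.16, R 4.3.3) was used for quasi-likelihood tests of the counts (TMM scaling, filterByExpr with a minimum count of 10, adjusted p under 0.05), after a check on simulated data. That check shifted few genes and took the TMM-scaled library sizes as true, so it says nothing on the choice of scaling. The SE of a log2 fold change is its size over the square root of F. Coordinates and merged exon lengths are from GENCODE M21. Near copies were sought with blastn 2.17.0, at 90% identity over at least 300 bases, a length set after the matches were seen. Chi-square values per degree of freedom between libraries of 1 group were 8.85 or more, beyond sampling noise.

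The members and lists were chosen with earlier results of these data known. The rule for named genes takes the 9 members, Elac2, up to 4 called members per list and direction with the smallest adjusted p, the most abundant and called members of each marker list, the nearest profiles to Uchl1 and Fbxo32, and genes overlapping the members. Foxo1, Foxo3, Foxo4, Pik3r1, Akt1 and Ppargc1a were named outside this rule, after their values were seen. Marker sums without the marker of largest difference were added then too. The 17 alternatives comprised 3 other scalings (library size alone, RLE, and TMM on nuclear genes), 2 other filters (none, or 50 counts in 3 libraries), limma-voom (limma 3.58.1), DESeq2 1.42.0, robust fitting, the replicate number as a block, the authors' deposited table and each library left out. Leaving out both replicates 2 was added after the data were seen.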

Additional observations from a re-analysis of the deposited data

How the results depend on the processing

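Uchl1 and Uchl3 were called higher in all 17 alternatives, Uchl1 at a log2 fold change of 3.97 to 4.21 with 1 library left out. Library size alone gave log2 fold changes of 4.76 for Uchl1 and 0.33 for Trim63, 6 of the 9 genes higher and 0 lower, and 8093 tested genes higher and 552 lower. Its list counts, higher and lower, were 13 and 0 for UCH partners, 55 and 0 for other deubiquitinases, 25 and 4 for other ligases, 31 and 0 for the ubiquitin core, 16 and 3 for upstream regulators, 20 and 1 for FoxO and atrophy-induced genes, and 11 and 3 for substrates. Without a filter 8 upstream regulators were higher. DESeq2 and the authors' deposited table each gave 1 UCH partner and 2 core genes lower. The labels state no pairing of mice by replicate number. Deviations from the group means had correlations of -0.20, 0.09 and -0.09 between mice of the same number. Between mice of different numbers they ran from -0.15 to 0.17, so with 3 mice a group they cannot decide on a pairing. The replicate block gave 1 of the 9 genes lower (Trim63 lost its call), 1 UCH partner higher and 1 lower, and 2 core genes lower.

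Without both replicates 2, which leaves 2 libraries a group, 1042 genes were higher and 1014 lower, of which 1034 and 986 were among the calls from all libraries. Of the 9 genes 1 was then lower, and list counts, higher and lower, were 0 and 0 for UCH partners, 5 and 2 for deubiquitinases, 3 and 8 for other ligases, 2 and 1 for the core, 3 and 6 for upstream regulators, 8 and 4 for FoxO and atrophy-induced genes and 3 and 3 for substrates. Fewer samples were fitted there. With 1 library left out, 1899 to 2903 genes were higher and 1795 to 2934 lower. Of the 9 genes 3 were higher each time and 1 to 3 lower. In the same fits the counts higher were 0 to 3 UCH partners, 10 to 15 deubiquitinases, 6 to 8 other ligases, 7 to 15 core genes, 4 to 6 upstream regulators, 10 to 14 FoxO and atrophy-induced genes and 3 to 5 substrates. The counts lower were 0 to 4, 3 to 6, 12 to 16, 1 to 5, 12 to 16, 6 to 8 and 5 to 6 for these lists in turn. The cause of these moves was not tested. Control counts of Uchl1 (19 to 31) limit the precision of its fold change.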
